A study of Homo sapiens with 6 samples.

Results

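The nuclear genes for mitochondrial ATP synthase and for the proteins that shape the inner mitochondrial membrane around it were followed in SH-SY5Y cells made to express PGC-1a. Members were the protein-coding genes whose symbol begins with ATP5, of which there were 21, and 17 further named genes for assembly factors, the MICOS complex, the SAM and metaxin bridge, OPA1, STOML2 and PHB2. They came to 38 of the 58096 gene rows, and 36 of them passed the filter on low counts, among 19343 genes tested. ATP5MGL had 8 counts over the PGC1A libraries and 2 over the GFP libraries. ATP5MF-PTCD1, a readthrough transcript of which 100% of the principal transcript is shared with other genes, had 4 counts over the PGC1A libraries and 14 over the GFP libraries. These were the members not tested, and no fold change was read for them.

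The PGC1A group held 3 libraries from cells infected with an adenovirus carrying PGC-1a, and the GFP group held 3 from cells infected with an adenovirus carrying GFP. All 6 came from SH-SY5Y, a human neuroblastoma line, 48 h after 2 ul of virus. The virus volume was equal, but no titre is given in the labels, and uninfected cells were not analysed here, so viral dose and PGC-1a cannot be told apart. Whether the 3 libraries of each group stem from separate cultures is not stated, and the p-values below cover no more than the spread among the libraries, which could be technical.

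ATP synthase turns the proton gradient across the inner mitochondrial membrane into ATP. Its membrane part, a rotating ring of c subunits beside subunit a, turns a central stalk inside the catalytic F1 head, while a peripheral stalk holds the head still. Rows of synthase dimers bend the membrane at the rims of cristae, and MICOS, with OPA1 and the SAM complex of the outer membrane, holds the narrow junctions where cristae open. PGC-1a is a coactivator known for driving nuclear genes of mitochondrial respiration through partners such as the ERR receptors, NRF1 and GABP.

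PPARGC1A itself averaged 4042 ± 61.9 CPM in PGC1A libraries and 3.75 ± 0.233 CPM in GFP libraries (SD, n = 3 each), and ESRRA, the gene for the nuclear receptor ERRa, averaged 208 ± 4.36 CPM in PGC1A libraries and 48.5 ± 1.27 CPM in GFP libraries. Gene counts per library ranged from 24988743 to 31762496. Of 10 noradrenergic neuroblastoma markers, 8 reached 1 CPM in both groups, and TH was among those that did not. The summed level of the 10 was 623 to 634 CPM in PGC1A libraries and 1713 to 1738 CPM in GFP libraries, with 8 lower and 0 higher. The 6 mesenchymal or fibroblast markers summed to 142 to 147 CPM in PGC1A libraries and 319 to 328 CPM in GFP libraries, with 5 lower and 0 higher. The 6 neuronal progenitor markers summed to 229 to 239 CPM in PGC1A libraries and 780 to 790 CPM in GFP libraries, with 2 higher and 2 lower, and SOX1 stayed under 1 CPM. The 6 glial markers summed to 2.04 to 2.62 CPM in PGC1A libraries and 7.58 to 8.38 CPM in GFP libraries, with 1 higher and 2 lower, and SOX10, S100B, GFAP and FOXD3 were among those under 1 CPM. These lists moved with the groups, and their part in the results for the synthase and cristae genes was not tested.

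Of the 36 members tested, 35 were higher in PGC1A, 0 were lower and 1, the synthase inhibitor ATP5IF1, did not pass the test, whereas scaling by total counts gave 34 higher and 2 lower, ATP5IF1 and DMAC2L. By the same test, edgeR's quasi-likelihood test with Benjamini-Hochberg adjustment under 0.05, 83.0% of all genes tested were called, 40.9% higher and 42.1% lower in PGC1A. At least 2-fold higher were 33 members, against 19.0% of all genes tested, and 33 members passed a test against a 1.5-fold rise, against 24.6% of all genes. The PGC1A and GFP libraries did not overlap for 35 members, which was also the case for 83.6% of all genes. The median log2 fold change of PGC1A over GFP was 1.65 over the members, with a range of 0.03 to 3.47, and -0.03 over all genes. In bulk RNA, more cells with a transcript and more RNA per cell cannot be told apart.

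**Figure D1:**
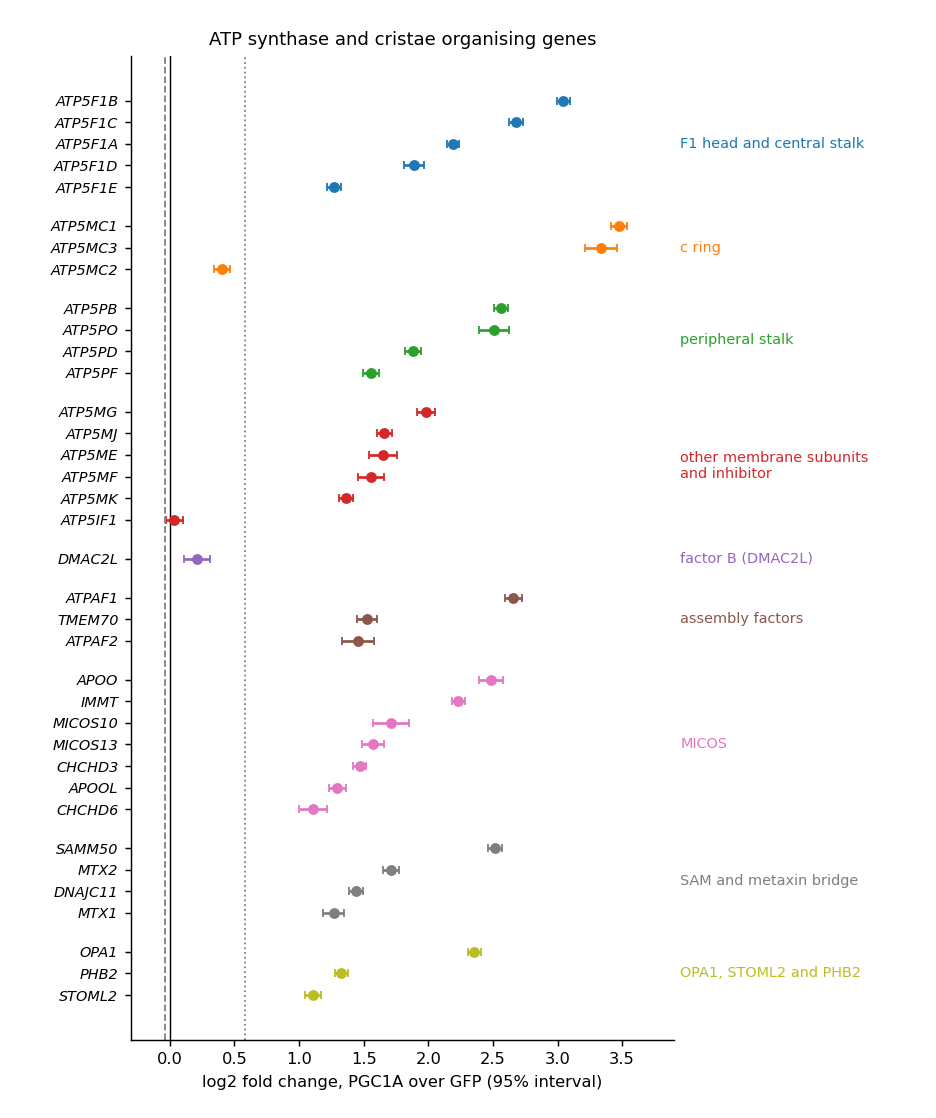
Log2 fold change of PGC1A over GFP for each of the 36 members tested, grouped by role, with approximate 95% intervals computed from the edgeR test statistic. The solid line marks no change, the dashed line the median of all genes and the dotted line a 1.5-fold rise. ATP5IF1, DMAC2L and ATP5MC2 lie left of the dotted line, and ATP5MC1 and ATP5MC3 lie farthest right.

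The 17 nuclear genes for structural subunits, which together give all of the enzyme except the subunits made from mitochondrial DNA, all rose. Of all genes tested, 40.9% were called higher. At least 2-fold higher were 16 of the 17, against 19.0% of all genes, and the median log2 fold change of the 17 was 1.89. Their transcripts made up 1.02% ± 0.0191 of all gene counts in PGC1A libraries and 0.226% ± 0.00404 in GFP libraries (SD, n = 3 each). The remaining members took 0.363% ± 0.00218 in PGC1A libraries and 0.138% ± 0.000641 in GFP libraries. The rise was uneven within the complex, from 0.40 to 3.47 on the log2 scale. The shares of all genes given above also apply to the counts for each role group below.

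All 5 genes of the F1 head and central stalk rose, with a median log2 fold change of 2.19. ATP5F1B, which encodes the catalytic beta subunit, had 4651, 4511 and 4434 CPM in the PGC1A libraries, against 537, 572 and 540.4 CPM in the GFP libraries. Every PGC1A library lay far above every GFP library, and the log2 fold change was 3.04 (SE 0.03, adjusted p = 1.84e-55). ATP5F1E, which encodes the small epsilon subunit of the central stalk, changed least in the head. It had 314, 306 and 297 CPM in the PGC1A libraries, against 124, 129 and 126 CPM in the GFP libraries, a 2.42-fold rise (adjusted p = 1.16e-39). Its groups did not overlap either, but 23.2% of its exon bases are shared with TUBB1 on the opposite strand. Between these, ATP5F1C, for the gamma shaft that turns inside the head, rose 6.39-fold, ATP5F1A, for the alpha subunit that alternates with beta, rose 4.56-fold, and ATP5F1D, for the delta subunit of the stalk, rose 3.71-fold.

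The promoter of ATP5F1A holds the largest variety of motif letters among the windows printed here. The window runs from 250 bases before to 50 after a RefSeq start, on GRCh38.p14 at chr18:46098247-46098546, minus strand. It is 1 of 2 windows listed for the gene and was chosen by the number of motifs matched. Capitals mark, in order, the ETS and GABP core and the ERR core, both on the opposite strand, and the YY1 core on the gene's strand.
ATP5F1A: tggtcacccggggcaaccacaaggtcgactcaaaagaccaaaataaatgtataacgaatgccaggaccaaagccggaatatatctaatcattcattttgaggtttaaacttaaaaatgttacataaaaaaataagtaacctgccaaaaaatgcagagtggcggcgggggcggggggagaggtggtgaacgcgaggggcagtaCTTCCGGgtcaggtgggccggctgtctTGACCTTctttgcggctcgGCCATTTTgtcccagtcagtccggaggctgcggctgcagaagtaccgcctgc
The ETS core lies at -48 to -42 from the start, the ERR core at -21 to -15 and the YY1 core at -2 to 6. These are letter matches only.

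The c ring held both the largest and the smallest rise among the 17 subunit genes. ATP5MC1, ATP5MC2 and ATP5MC3 encode the same mature c subunit behind different import presequences, so they are alternative sources of 1 protein. ATP5MC1 had 566, 563 and 540 CPM in the PGC1A libraries, against 51.2, 51.9 and 47.4 CPM in the GFP libraries. Its log2 fold change of 3.47 (SE 0.03, adjusted p = 6.40e-55), an 11.1-fold rise, was the largest estimate among the members. ATP5MC3 had 1328, 1252 and 1191 CPM in the PGC1A libraries, against 122, 134 and 118 CPM in the GFP libraries, or 3.34 as a log2 fold change (SE 0.06, adjusted p = 8.40e-09). Neither gene overlapped between groups, and the 95% intervals of their fold changes overlapped. ATP5MC2 had 111, 107 and 105.5 CPM in the PGC1A libraries, against 81.3, 84.9 and 79.5 CPM in the GFP libraries. Its groups did not overlap, and it passed the test with a 1.32-fold rise (log2 0.40, 95% interval 0.34 to 0.46, adjusted p = 2.30e-16), but it did not pass against 1.5-fold (adjusted p = 1). Scaled by total counts its log2 fold change was 0.07 (adjusted p = 0.0302).

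Within each library, the share of c subunit transcripts per kb of exon coming from each gene was computed, which does not depend on how libraries are scaled. ATP5MC2 gave 6.34%, 6.30% and 6.47% in the PGC1A libraries, against 35.2%, 35.0% and 36.0% in the GFP libraries. ATP5MC1 gave 50.1% ± 0.774 in PGC1A and 33.0% ± 0.650 in GFP, and ATP5MC3 gave 43.6% ± 0.806 in PGC1A and 31.6% ± 0.731 in GFP (SD, n = 3 each). In PGC1A libraries ATP5MC2 was thus the minor source, while in GFP libraries the 3 genes had near-equal shares. The shift of -29.0 percentage points for ATP5MC2 was far larger than the spread between libraries, and its exact two-sided permutation p was 0.1, the smallest that 3 against 3 libraries allow. With raw counts in place of counts per kb, ATP5MC2 gave 5.63% in PGC1A and 31.96% in GFP, ATP5MC1 gave 28.97% in PGC1A and 19.6% in GFP, and ATP5MC3 gave 65.4% in PGC1A and 48.5% in GFP. With the length of the principal transcript, ATP5MC2 gave 4.66% in PGC1A and 28.7% in GFP, ATP5MC1 gave 76.1% in PGC1A and 55.8% in GFP, and ATP5MC3 gave 19.2% in PGC1A and 15.5% in GFP. Which of ATP5MC1 and ATP5MC3 was the main source therefore depended on the length used, as did the near-equality in GFP. ATP5MC2 had the smallest share in PGC1A and a lower share there than in GFP under all 3 measures. Reads with several alignments were left out, and how many each gene lost was not measured, so the shares themselves are uncertain. Summed over the 3 genes, c subunit transcripts reached 425 ± 15.8 CPM per kb in PGC1A libraries and 58.1 ± 2.75 CPM per kb in GFP libraries.

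**Figure D2:**
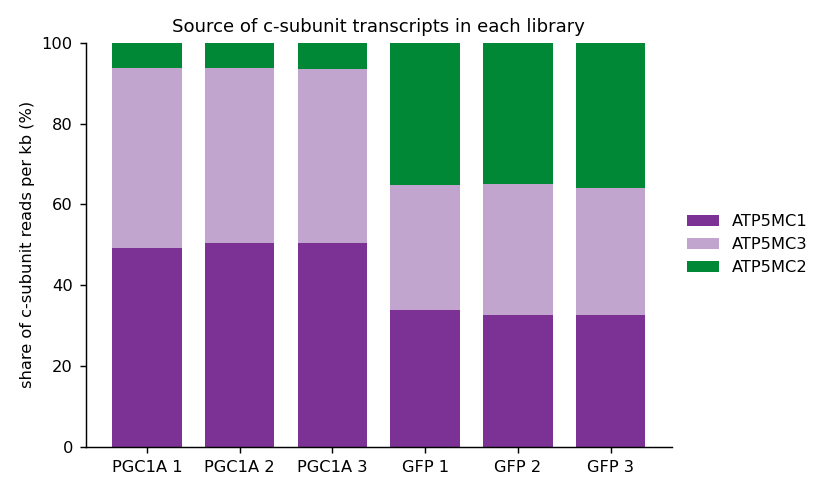
Share of c subunit transcripts per kb of exon that ATP5MC1, ATP5MC3 and ATP5MC2 gave in each library, as stacked bars that add up to 100%, with PGC1A libraries left of GFP libraries. ATP5MC2 takes about 6% of the transcripts in PGC1A libraries and about 35% in GFP libraries.

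The promoters of ATP5MC1 and ATP5MC2 are printed to set the c subunit gene that rose most beside the one that rose least. ATP5MC1 lies at chr17:48892537-48892836 on the plus strand and ATP5MC2 at chr12:53676034-53676333 on the minus strand (RefSeq, GRCh38.p14), and the ATP5MC2 window is 1 of 3 listed for that gene, the one with the most motif matches. Capitals mark an NRF1 site, at -41 to -33 on the opposite strand, in ATP5MC2.
ATP5MC1: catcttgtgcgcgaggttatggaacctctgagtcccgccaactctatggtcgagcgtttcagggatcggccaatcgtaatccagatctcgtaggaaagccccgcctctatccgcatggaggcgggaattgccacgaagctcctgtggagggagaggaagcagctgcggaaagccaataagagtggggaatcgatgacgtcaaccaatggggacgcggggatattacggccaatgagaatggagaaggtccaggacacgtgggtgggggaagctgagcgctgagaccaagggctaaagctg
ATP5MC2: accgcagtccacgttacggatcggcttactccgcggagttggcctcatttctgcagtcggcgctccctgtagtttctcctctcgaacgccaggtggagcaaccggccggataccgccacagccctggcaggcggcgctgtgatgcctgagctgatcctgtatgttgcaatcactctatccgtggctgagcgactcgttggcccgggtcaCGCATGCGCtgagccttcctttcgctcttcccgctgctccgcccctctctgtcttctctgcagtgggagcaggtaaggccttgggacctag
The ATP5MC1 window held none of the 6 motifs searched, which says only that these letters are not in it.

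All 4 genes of the peripheral stalk, which anchors the head to the membrane, rose, with a median log2 fold change of 2.19. ATP5PB, for the long b subunit that spans the stalk, had 722, 685 and 683 CPM in the PGC1A libraries, against 119.9, 116.5 and 117 CPM in the GFP libraries, which gave 2.56 for the log2 fold change (SE 0.03, adjusted p = 6.50e-53). ATP5PF, for coupling factor F6, had 173, 166 and 168 CPM in the PGC1A libraries, against 58.0, 58.4 and 56.3 CPM in the GFP libraries, which gave 1.56 (SE 0.03, adjusted p = 2.33e-41). Neither gene overlapped between groups, and the rise of ATP5PB was 5.91-fold against 2.94-fold for ATP5PF. ATP5PD, for the d subunit, rose 3.68-fold. Genes on the opposite strand share 23.05% of the exon bases of ATP5PF and 19.07% of those of ATP5PD. ATP5PO, for the OSCP subunit that joins the stalk to the top of the head, rose 5.69-fold at a low level of 42.6 CPM in PGC1A and 7.50 CPM in GFP. Of its principal transcript, 70.3% is shared on the same strand with AP000311.1, so its level is uncertain.

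Of the other membrane subunits, which sit beside the ring and hold synthase dimers together, all 5 rose. ATP5MG, for the g subunit found at the dimer interface, had 168, 161 and 151 CPM in the PGC1A libraries, against 38.5, 42.0 and 40.9 CPM in the GFP libraries. Its log2 fold change was 1.98 (SE 0.04, adjusted p = 5.10e-36), with no overlap. ATP5MJ, for a small proteolipid subunit, rose 3.15-fold, ATP5ME, for the e subunit, 3.13-fold, ATP5MF, for the f subunit, 2.95-fold and ATP5MK, for the DAPIT subunit, 2.57-fold. Of the exon bases of ATP5ME, 61.6% are shared with MYL5 on the opposite strand. Of the principal transcript of ATP5MF, 46.2% is shared on the same strand, so both values are uncertain. The same-strand share of the principal transcript is 17.6% for ATP5MG and 16.1% for ATP5MK.

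ATP5IF1, whose product blocks ATP hydrolysis by the synthase when the proton gradient collapses, did not follow the subunits. It had 71.4, 68.4 and 68.4 CPM in the PGC1A libraries, against 70.8, 67.0 and 65.9 CPM in the GFP libraries. The groups overlapped, and the log2 fold change was 0.03 (95% interval -0.03 to 0.10, adjusted p = 0.350). Scaled by total counts it was lower in PGC1A, at -0.30 (adjusted p = 5.54e-11), and by upper quartiles at -0.093 (adjusted p = 0.0106), so its direction depended on the scaling. Total counts also moved the median of all genes to -0.36, and upper quartiles moved it to -0.16. Its log2 ratio to ATP5F1B, which no scaling touches, was -6.03 ± 0.0126 in PGC1A libraries and -3.02 ± 0.0873 in GFP libraries (SD, n = 3 each). The difference of -3.01 was far outside the spread between libraries, and 3 against 3 libraries allow an exact permutation p no smaller than the 0.1 obtained. ATP5F1B rose most of the 5 F1 genes, and the median log2 fold change of the 17 subunits was 1.89. Most subunits would therefore give a smaller difference. The promoter of ATP5IF1 is printed because this gene was the member that did not pass the test. The window lies at chr1:28235874-28236173 on the plus strand (RefSeq, GRCh38.p14), held none of the motifs searched and so has no capitals.
ATP5IF1: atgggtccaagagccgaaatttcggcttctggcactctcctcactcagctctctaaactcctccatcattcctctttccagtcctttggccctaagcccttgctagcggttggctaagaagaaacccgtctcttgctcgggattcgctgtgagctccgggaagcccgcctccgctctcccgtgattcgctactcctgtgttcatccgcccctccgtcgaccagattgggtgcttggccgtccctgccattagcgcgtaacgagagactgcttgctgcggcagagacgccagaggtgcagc

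**Figure D3:**
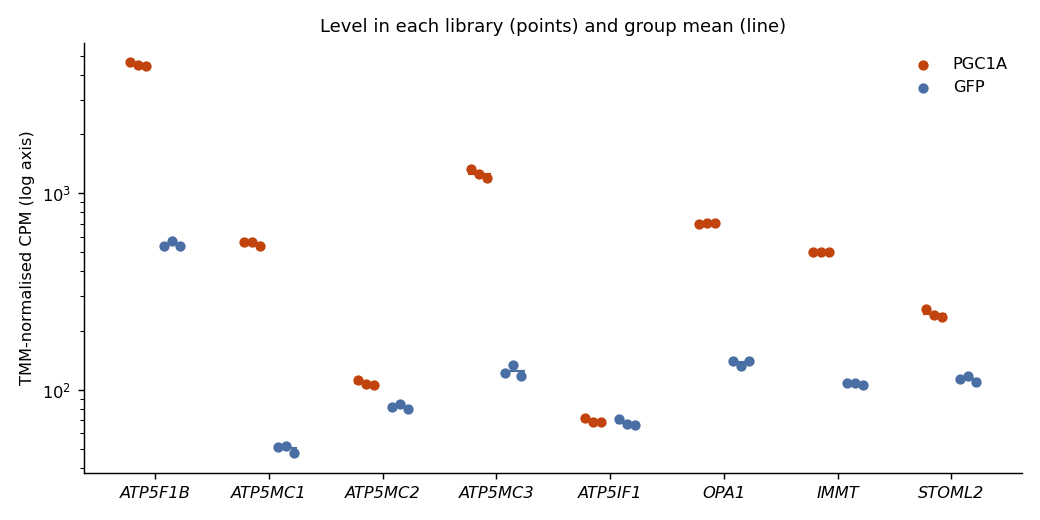
CPM on a log axis for 8 members (ATP5F1B, the 3 c subunit genes, ATP5IF1, OPA1, IMMT and STOML2), PGC1A libraries left of GFP libraries, each point 1 library and each line a group mean. The groups are apart for every gene drawn except ATP5IF1, whose libraries lie between 65.9 and 71.4 CPM.

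The level of each subunit was also ranked within each group, per kb of all exon bases and, as an alternative, per kb of the principal transcript. Most ranks depended on which length was used. ATP5F1B stood highest, at 1952 ± 47.4 CPM per kb in PGC1A libraries and 237 ± 8.35 CPM per kb in GFP libraries. ATP5PO stood lowest, at 12.8 ± 0.844 CPM per kb in PGC1A and 2.25 ± 0.0763 CPM per kb in GFP. Both kept these places with the principal transcript. The place of ATP5PO is uncertain with either length, since 70.3% of its principal transcript is shared on the same strand. ATP5MC2 ranked 16 of 17 in PGC1A and 10 in GFP with either length. ATP5MC1 ranked 4 in PGC1A and 11 in GFP per kb of exon, and 2 in PGC1A and 7 in GFP per kb of the principal transcript. The SD of log2 levels over the 17 subunits was 1.71, 1.71 and 1.73 in the PGC1A libraries, against 1.47, 1.48 and 1.46 in the GFP libraries, so levels were spread more widely in PGC1A by 0.24. Over the 9 subunits with less than 10% of exon bases shared, the difference was 0.59. No test was made of this value, since it is a score over chosen genes.

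All 3 assembly factors rose, with a median log2 fold change of 1.52. ATPAF1, a chaperone of the beta subunit, had 299, 288 and 278 CPM in the PGC1A libraries, against 43.0, 46.0 and 47.8 CPM in the GFP libraries, or 2.66 as a log2 fold change (SE 0.03, adjusted p = 7.20e-45). ATPAF2, a chaperone of the alpha subunit, had 25.9, 25.5 and 23.9 CPM in the PGC1A libraries, against 10.1, 8.63 and 8.98 CPM in the GFP libraries, or 1.45 as a log2 fold change (SE 0.06, adjusted p = 2.66e-26). Both groups were apart for each gene. The log2 ratio of ATPAF1 to ATPAF2 was 3.52 ± 0.0213 in PGC1A libraries and 2.31 ± 0.182 in GFP libraries (SD, n = 3 each). Its difference of 1.21 exceeded the spread, with an exact permutation p of 0.1. TMEM70, which helps to form the c ring, rose 2.87-fold. DMAC2L, formerly ATP5S and once described as coupling factor B, had 25.7, 25.2 and 25.7 CPM in the PGC1A libraries, against 21.4, 21.5 and 23.2 CPM in the GFP libraries. Its 1.16-fold rise passed the test (adjusted p = 2.07e-04) but was called lower under total counts (log2 -0.12, adjusted p = 0.0302) and did not pass under upper-quartile factors.

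All 14 cristae organising genes rose at least 2-fold, against 19.0% of all genes tested. The log2 fold changes of the 14 ran from 1.11 to 2.52 around a median of 1.52. All 7 MICOS genes were among them, with a median of 1.57. APOO, for MIC26, an apolipoprotein-like subunit, had 77.0, 71.5 and 70.0 CPM in the PGC1A libraries, against 12.9, 13.4 and 12.7 CPM in the GFP libraries, or 2.49 as a log2 fold change (SE 0.05, adjusted p = 6.14e-42). CHCHD6, for MIC25, had 29.3, 29.5 and 28.6 CPM in the PGC1A libraries, against 12.3, 14.4 and 13.7 CPM in the GFP libraries, or 1.11 as a log2 fold change (SE 0.06, adjusted p = 1.37e-23). The groups were apart for both. IMMT, for MIC60, the core subunit that bends the membrane at the junction, rose 4.69-fold. MICOS10, for MIC10, the other membrane-bending core subunit, rose 3.27-fold, and 11.7% of its exon bases are shared on the same strand. MICOS13, for MIC13, which bridges the MIC60 and MIC10 arms, rose 2.98-fold, and 32.7% of its principal transcript is shared on the opposite strand. CHCHD3, for MIC19, the partner of MIC60, rose 2.77-fold and APOOL, for MIC27, 2.45-fold.

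Related MICOS genes did not keep their proportions. The log2 ratio of APOOL to APOO was 0.56 ± 0.0665 in PGC1A libraries and 1.74 ± 0.0434 in GFP libraries, a difference of -1.19. That of CHCHD6 to CHCHD3 was -4.11 ± 0.0254 in PGC1A libraries and -3.75 ± 0.0989 in GFP libraries, a difference of -0.35 (SD, n = 3 each). Both differences exceeded the spread between libraries, and the exact permutation p was 0.1 for each of the 6 ratios compared, also after Benjamini-Hochberg adjustment over the 6.

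On the outer membrane side, SAMM50, the beta-barrel core of the SAM complex to which MICOS binds, had 367, 364 and 349 CPM in the PGC1A libraries, against 62.1, 64.0 and 62.7 CPM in the GFP libraries. Its log2 fold change was 2.52 (SE 0.03, adjusted p = 2.94e-51), the largest of the 14 cristae genes. MTX1, for the SAM partner metaxin 1, had 57.2, 59.4 and 56.2 CPM in the PGC1A libraries, against 23.7, 23.6 and 24.5 CPM in the GFP libraries, or 1.27 as a log2 fold change (SE 0.04, adjusted p = 1.49e-31). Neither gene overlapped between groups. MTX2, for metaxin 2, rose 3.27-fold, and DNAJC11, for a J-domain protein of the bridge, rose 2.72-fold. Genes on the opposite strand share 21.9% of the exon bases of MTX1 and 27.9% of those of DNAJC11, and MTX1 has a pseudogene, so these levels are less certain. The log2 ratio of MTX2 to MTX1 was 1.57 ± 0.0688 in PGC1A libraries and 1.13 ± 0.0189 in GFP libraries.

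OPA1, the GTPase that fuses inner membranes and narrows cristae junctions, had 698, 704 and 709 CPM in the PGC1A libraries, against 140.4, 132 and 140.3 CPM in the GFP libraries. Its log2 fold change was 2.35 (SE 0.03, adjusted p = 8.59e-52), with groups far apart. STOML2, for a cardiolipin-binding scaffold of the inner membrane, had 257.5, 239.6 and 234 CPM in the PGC1A libraries, against 113, 117 and 109 CPM in the GFP libraries, or 1.11 as a log2 fold change (SE 0.03, adjusted p = 7.03e-29). PHB2, for a subunit of the prohibitin ring, rose 2.51-fold. The log2 ratio of STOML2 to PHB2 was -0.94 ± 0.0484 in PGC1A libraries and -0.72 ± 0.0185 in GFP libraries.

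**Figure D4:**
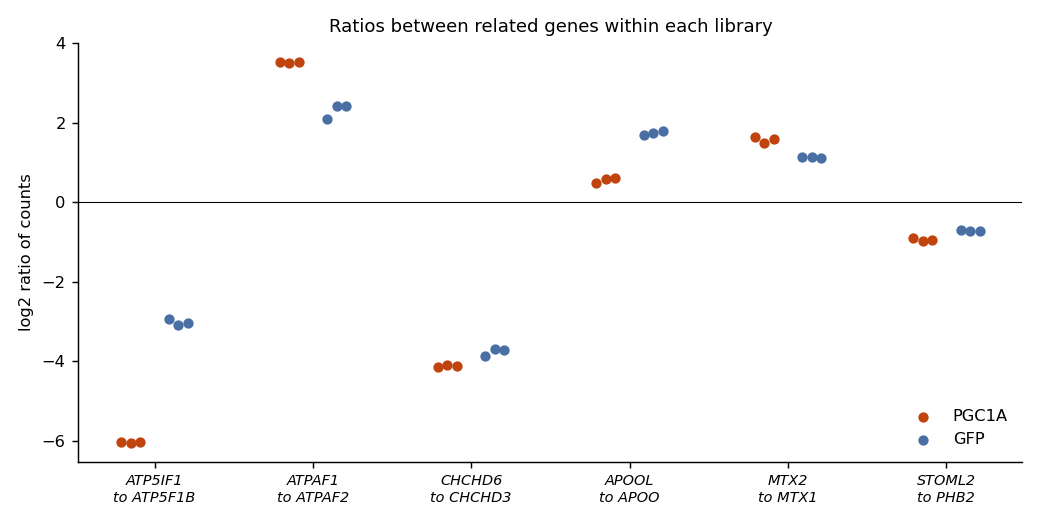
Log2 ratio of counts for 6 pairs of related genes within each library, with PGC1A libraries left of GFP libraries. Each point is 1 library. The libraries of the groups are apart for every pair, by most for ATP5IF1 to ATP5F1B, where the means differ by -3.01.

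Among 19 other genes of the pathway, 18 passed the filter, and all 18 were called higher and 0 lower (1 lower, YME1L1, under total counts). Of all genes tested, 40.9% were called higher and 42.1% lower. At least 2-fold higher were 11 of the 18, against 19.0% of all genes. The test against a 1.5-fold rise was passed by 15, against 24.6% of all genes. The median of their log2 fold changes was 1.30. For the subunits encoded by mitochondrial DNA, the estimates lay below those of 16 of the 17 nuclear subunits, a difference that was not tested. MT-ATP6, for subunit a, which channels protons to the ring, had 6099, 5911 and 5609 CPM in the PGC1A libraries, against 3000, 3244 and 3241 CPM in the GFP libraries, or 0.89 as a log2 fold change (SE 0.03, adjusted p = 2.65e-14). MT-ATP8, which overlaps it, had 615.5, 565 and 536.5 CPM in the PGC1A libraries, against 376, 338 and 430.0 CPM in the GFP libraries, or 0.59 as a log2 fold change (SE 0.11, adjusted p = 7.31e-03), which did not pass under total counts (0.26, adjusted p = 0.0898). The share of both in all gene counts was 0.574% ± 0.0192 in PGC1A libraries and 0.397% ± 0.0164 in GFP libraries, so the nuclear subunits' share was above it in PGC1A and below it in GFP. SLC25A4 and SLC25A5, the carriers that exchange ADP for ATP, showed the largest rises of this list, 16.0-fold and 7.79-fold, and SLC25A4 had 1082, 1071 and 1063 CPM in the PGC1A libraries, against 67.2, 67.5 and 66.0 CPM in the GFP libraries. The smallest rises were those of YME1L1, a protease that processes OPA1, at 1.18-fold, and of SLC25A46 and MT-ATP8, both at about 1.5-fold. Under total counts YME1L1 was called lower (log2 -0.088, adjusted p = 3.80e-04). SLC25A6, another of these carriers, was listed at 0 in all 6 libraries and was not tested. It lies in the pseudoautosomal region, which is annotated on both X and Y, and 44 of the 45 genes annotated there had 0 counts on both copies, so its level cannot be read from this table.

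Of the 38 members, 30 had a promoter window in the RefSeq set used. Those without were ATP5F1B, ATP5MC3, ATP5F1D, ATP5MF, TMEM70, DMAC2L, ATP5MGL and ATP5MF-PTCD1. In the window from 250 bases before to 50 after each start, 6 motifs were searched on both strands. The 30 members had 41 windows, and a gene counted as holding a motif if any of its windows held it. The ETS and GABP core CCGGAAG was in 12 members, or 40.0%, against 12.2% of 27305 genes with a promoter and 20.2% of those also tested here. The NRF1 site GCGCATGCG was in 5 members (16.7%), ATP5F1C, ATP5MC2, ATP5ME, ATP5PF and OPA1, against 2.34% of all genes and 3.86% of those tested. Its relaxed form GCGCNTGCG, of which that site is a case, was in 9 members (30.0%), against 9.01% of all genes and 15.6% of those tested. The YY1 core GCCATNTT was in 7 members (23.3%), against 7.97% of all genes and 11.3% of those tested. The ERR element TCAAGGTCA was in 0 members, against 0.432% of all genes and 0.3% of those tested, and the shorter ERR core AAGGTCA, which the element contains, was in 4 (13.3%), ATP5F1A, ATP5MG, ATP5MJ and MICOS10, against 4.8% of all genes and 3.93% of those tested. A match is a description of the letters, not a bound site. The 5 members with the NRF1 site rose 1.32-fold (ATP5MC2), 2.94-fold (ATP5PF), 3.13-fold (ATP5ME), 5.11-fold (OPA1) and 6.39-fold (ATP5F1C). Whether any of these motifs goes with the size of the rise was not tested.

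By annotated gene ends, some members start beside a gene on the opposite strand. For 13 members with values given here the annotated end of such a neighbour lay within 1000 bases, and in 11 of these pairs both genes were tested. Distances run between the outermost annotated ends of both genes, which need not be the starts in use. For ATP5F1A that end, at 46104334 on chromosome 18, lies outside the promoter window printed above. The distance to HAUS1 is therefore not measured from the RefSeq start of that window. The neighbours were higher in 7 of the 11 pairs and lower in 4, against 40.9% higher and 42.1% lower of all genes tested. The member had the larger log2 fold change in 10. All 11 members rose at least 2-fold, against 19.0% of all genes, so most genes would lie below them. The search for neighbours was added after values had been seen. The median log2 fold change was 1.57 for these members and 0.45 for their neighbours. HAUS1, 2 bases from ATP5F1A, was at -0.65, GID4, 83 bases from ATPAF2, at -0.70, THBS3, 352 bases from MTX1, at -1.31 and HSD11B1L, 292 bases from MICOS13, at -1.51, each lower in PGC1A while its partner rose. KIN, 148 bases from ATP5F1C, at 0.45 and PDCD11, 134 bases from ATP5MK, at 0.21 rose little. ATP13A4, 33 bases from OPA1, was at 2.56 (SE 0.31) on 26, 41 and 40 counts in PGC1A libraries and 4, 12 and 6 counts in GFP libraries. Some of these pairs share exon bases, and how strand was treated in counting is not given, so their values are not fully separate.

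**Figure D5:**
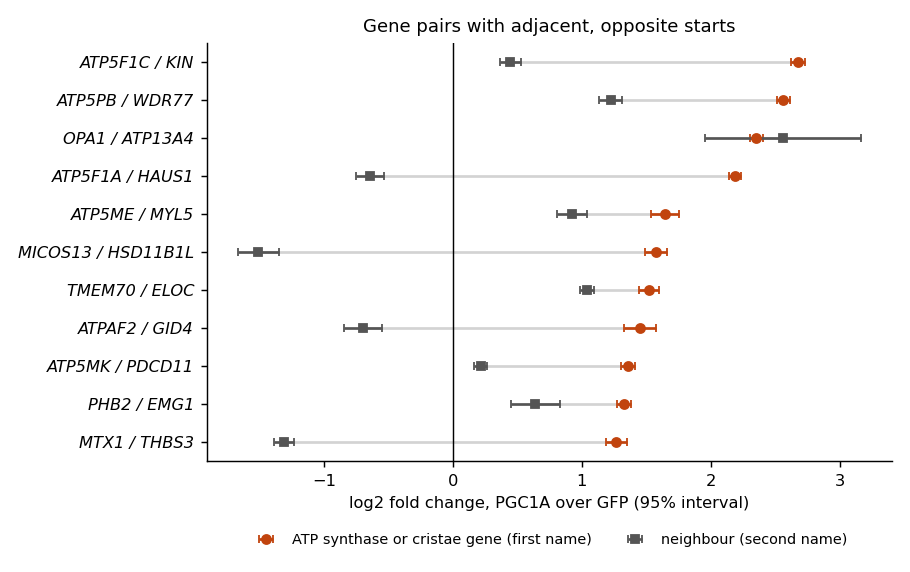
Log2 fold change of PGC1A over GFP, with 95% intervals, for 11 members and for the gene annotated to start beside each on the opposite strand. Grey squares, the neighbours, lie left of the orange points in 10 pairs, and 4 lie below 0.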

How the data were processed

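Raw read counts per gene for 6 libraries (3 PGC1A, 3 GFP) were deposited by the authors in 1 table. HTSeq 0.10.0, STAR 2.6.0c, DRAGEN and DESeq2 1.20.0 appear in the submitters' processing notes, as does GRCh38, with no role for any of them. Which annotation was counted, and whether by strand, is not given in the sources used here. The lines that HTSeq writes after the genes held 28.8% to 31.1% of reads, 12.4% to 14.4% for reads with several alignments, and were left out. Gene names, exon lengths and positions came from GENCODE 29 (GRCh38), in which 57492 of 58096 IDs were found. The ATP synthase family has 45 pseudogenes there, so reads shared with copies may be missing.

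The members and lists were chosen with earlier results of these data known. Counts were fitted with edgeR 4.0.16 in R 4.3.3 (TMM factors, filterByExpr with minimum count 10 and total 15, robust glmQLFit, glmQLFTest, two-sided), with a term for group alone. P-values were adjusted by Benjamini-Hochberg over 19343 genes. The fit was tested on simulated data. CPM are TMM-scaled. CPM per kb used all annotated exon bases of a gene, and ranks of levels changed with the principal transcript. Exon bases shared with other genes are given for some members only. Ratios and shares within libraries were compared by exact two-sided permutation tests. In each role group, the members with the largest and the smallest log2 fold change, and any that did not rise, are given by library. DMAC2L was on the list of other genes but is a member under its older symbol, and is counted as a member only. Promoter windows came from RefSeq (GRCh38.p14). The search for neighbours and the length of the principal transcript were added after values had been seen. For 1 pair of neighbours, in which the member had the smaller log2 fold change, and for some marker genes, values are not reported here. That pair is left out of the counts and medians of pairs, and the marker genes stay in the sums of their lists. Alternatives were other scaling factors, filters, glmTreat in edgeR against 1.5-fold, DESeq2 1.42.0, limma-voom 3.58.1, a replicate block and leaving out each library.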

Additional observations from a re-analysis of the deposited data

How the results depend on the processing

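Of the 36 members tested, 35 were called higher and 0 lower in the main edgeR fit and with each library left out in turn (35 to 35 higher, 0 to 0 lower), and over all genes the leave-one-out counts ran from 7867 to 7950 higher and 8032 to 8181 lower. Deviations from the group means were nearly uncorrelated between same-numbered libraries, at -0.0114, 0.0063 and 0.0109. This cannot show whether the libraries were paired by design, because noise in the counts also lowers such correlations, and the labels do not say. With the replicate number as a block, 35 members were higher and 0 lower, and 7914 genes were higher and 8157 lower, against 7909 and 8148 without the block. Scaling mattered most for members near 0. The median of all genes was -0.03 with TMM factors, -0.16 with upper-quartile factors and -0.36 with total counts, and the members' median was 1.65, 1.52 and 1.32 in that order. Of all calls, 49.3% were higher with TMM factors, 43.3% with upper-quartile factors and 35.0% with total counts. With total counts 2 members were lower, ATP5IF1 (-0.30) and DMAC2L (-0.12), and 1 other gene of the pathway, YME1L1 (-0.088). With upper-quartile factors 1 member was lower, ATP5IF1 (-0.093), and DMAC2L did not pass (0.08, adjusted p = 0.124). Against a 1.5-fold change, 4766 genes were higher and 4475 lower, a stricter question by construction, and ATP5MC2, DMAC2L, MT-ATP8, YME1L1 and SLC25A46 did not pass. The share of ATP5MC3 among c subunit transcripts rose by 11.99 percentage points per kb of exon and by 3.75 with the length of the principal transcript, and that of ATP5MC1 rose by 17.01 per kb of exon, 20.3 with the principal transcript and 9.41 on raw counts. The spread of subunit levels differed by 0.24 over 17 subunits and by 0.59 over the 9 with few shared exon bases. For ratios and shares, 3 against 3 libraries allow no p under 0.1. Beyond those built into an alternative, the causes were not tested.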
